A study of Mus musculus with 12 samples.

Results

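The ATP-driven ion pumps and proton pumps were taken as the genes whose symbol starts with Atp1a, Atp1b, Atp2a, Atp2b, Atp2c, Atp6v or Atp6ap, leaving out pseudogenes marked -ps and symbols that end in os. They were 41 of the 32546 genes in the UMI table, and 0 genes with such a symbol had to be left out. The sodium-potassium pump had 4 alpha and 4 beta subunit genes. The calcium pumps were 4 of the plasma membrane (Atp2b), 2 of the endoplasmic reticulum (Atp2a) and 2 of the Golgi (Atp2c). The vacuolar proton pump (V-ATPase) had 13 genes of the catalytic V1 sector, 9 of the membrane V0 sector and 3 accessory genes.

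The study tested photo-isolation chemistry (PIC), in which cDNA primers blocked by a light-sensitive group are released only where a section is irradiated, so that the cDNA of 1 region can be amplified by CEL-seq2 and counted by unique molecular identifiers (UMIs). Every group came from male ICR mice of 8 weeks, an outbred strain with no genotype or drug contrast, and CA1, CA3 or the dentate gyrus (DG) of the hippocampus was photo-irradiated. The series' description names CA2 where the sample titles name CA3, and the titles were followed. Brains were frozen unfixed and cut for the fresh-frozen HCl and fresh-frozen TE groups, while for the fixed frozen TE and paraffin TE groups the tissue was formalin-fixed before freezing or embedding. In the paper's protocol both frozen and paraffin sections were also fixed briefly after cutting with 4% paraformaldehyde. Permeabilization was 0.1 N HCl for 5 min in the first group and TE buffer at 70 °C for 1 h in the other groups. Each of the 12 combinations of region and condition had 4 biological replicates, which carried different barcodes and were pooled in 1 library, so a difference between regions within a condition and a difference between libraries cannot be told apart. The same holds between conditions within a region. Whether replicates of different groups came from the same mouse is not given in the sources used here, and p-values measure the spread between these replicates.

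These pumps use ATP to move ions against their gradients. The sodium-potassium pump restores the sodium and potassium gradients that action potentials run down, with a catalytic alpha subunit and a beta subunit needed to carry the pump to the membrane. Of the beta subunits of the brain, beta1 is found mainly in neurons and beta2 mainly in astrocytes. Calcium pumps of the plasma membrane and of the endoplasmic reticulum clear calcium after neuronal firing. The V-ATPase turns its V1 sector with ATP and passes protons through a V0 ring, which acidifies lysosomes and synaptic vesicles, and the proton gradient drives the loading of transmitters such as glutamate.

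Totals per replicate were 127253 to 933756 UMIs in fresh-frozen HCl, 294445 to 1111804 in fresh-frozen TE, 52800 to 307145 in fixed frozen TE and 35932 to 223055 in paraffin TE sections, and replicate 4 had the fewest in every library. The 41 genes together took 0.655 to 1.55% of a replicate's UMIs. Values are given as CPM, the UMIs of a gene scaled to a total of 1000000 UMIs in every replicate. Region markers followed the labels in frozen sections, where all 4 CA1 markers were higher in CA1 than in DG in each of the 3 conditions. In paraffin TE sections 1 of the 3 CA1 markers tested was called in that comparison. Markers of other cells also differed. All 7 oligodendrocyte markers were higher in CA1 than in DG in the 3 frozen conditions, 7, 7 and 5 were higher in CA3 than in DG in fresh-frozen HCl, fresh-frozen TE and fixed frozen TE sections, and all 7 were higher in paraffin TE than in fixed frozen TE sections, with a median log2 fold change of 1.99, and their part in the results on the pumps was not tested.

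Regions were compared within each condition, and called genes were those with an adjusted p under 0.05 (edgeR, all genes tested). Between CA3 and DG, 3 of 29 pump genes tested were higher in CA3 in fresh-frozen HCl sections and 2 were lower, where 4.11% and 4.85% of all genes were called. In fresh-frozen TE sections 6 of 29 were higher and 2 lower (3.7% and 4.07% of all genes), in fixed frozen TE 9 of 29 higher and 2 lower (4.77% and 4.61%), and in paraffin TE 4 of 29 higher and 1 lower (2.4% and 1.3%). The paraffin TE counts were 1 and 1 when the scaling factors were taken from all genes instead of well-covered genes. The share of pump genes higher in CA3 was above that of all genes in each condition with the scaling used here, and genes of equal abundance were not compared.

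Between CA1 and DG, the calls were 5 higher and 4 lower in CA1 of 29 tested in fresh-frozen HCl (9.12% and 8.02% of all genes), 6 and 1 of 30 in fresh-frozen TE (4.72% and 5.32%), 2 and 3 of 29 in fixed frozen TE (4.12% and 3.85%) and 0 and 1 of 28 in paraffin TE sections (1.43% and 1.3%). Between CA1 and CA3 they were 0 higher and 5 lower in CA1 of 29 in fresh-frozen HCl (5.01% and 4.13%), 1 and 2 of 30 in fresh-frozen TE (2.01% and 2.32%), 1 and 4 of 28 in fixed frozen TE (3.66% and 3.71%) and 0 and 2 of 28 in paraffin TE sections (0.801% and 1.55%). The 6 genes higher in CA1 than in DG of fresh-frozen TE sections include Atp6ap1l, which had 10 UMIs in CA1 and 0 in DG. It met the minimum of 10 UMIs for a test through CA1 alone. The 3 comparisons of a condition share replicates and are not independent. Of the 15 calls between CA1 and CA3, 13 were lower in CA1. After every replicate was thinned to 35932 UMIs, 39 of 106 calls that could be refitted, of genes named here and including those between conditions below, were kept, 65 were lost and 2 changed sign.

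Replicates with the same number deviated together (r over 0.1 in every pair) in 4 of the region comparisons, and a fit with the replicate number as a block gave more calls in each of these. The shares of all genes given above are from fits without the block. The block's counts cannot be set against them or read as particular to the pumps. Between CA3 and DG it gave 9 higher and 2 lower in fresh-frozen HCl and 11 higher and 4 lower in fresh-frozen TE sections. The block added Atp2b4, Atp2a2, Atp6ap2, Atp1b3, Atp6v1g1 and Atp6v0e2 to the genes higher in CA3 in fresh-frozen HCl. In fresh-frozen TE it added Atp6v1b2, Atp6v0a1, Atp6v1g2 and Atp1b3 to the higher and Atp2b3 to the lower genes, among others. Between CA1 and CA3 in fresh-frozen TE the block gave 3 higher and 4 lower, adding Atp2b4 to the former and Atp6v0a1 and Atp6v1a to the latter, and between CA1 and DG it gave 5 higher and 3 lower.

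**Figure D1:**
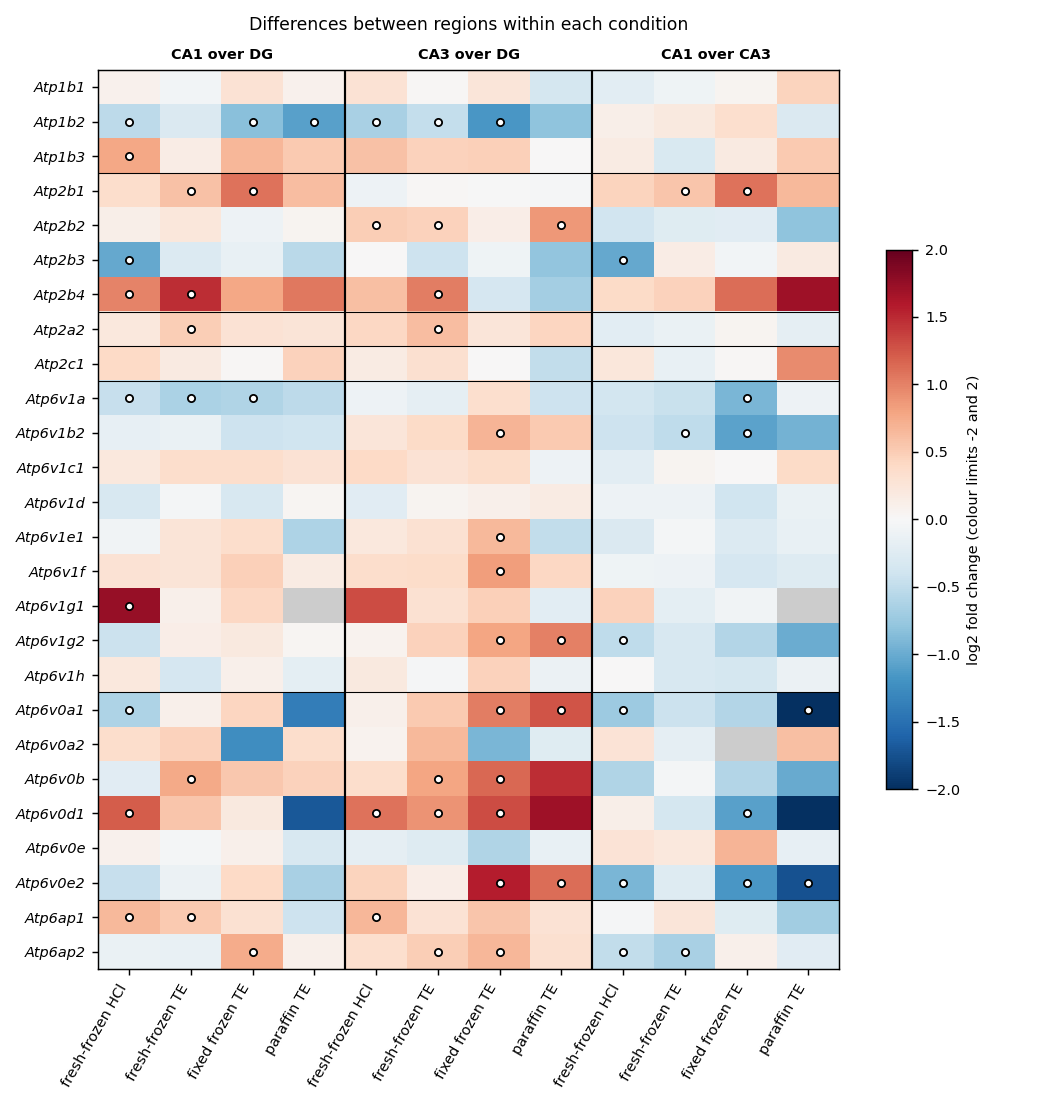
Log2 fold changes of the pump genes for CA1 over DG, CA3 over DG and CA1 over CA3 in each of the 4 conditions, with genes grouped by pump. Circles mark an adjusted p under 0.05 and grey cells were not tested. In fixed frozen TE sections 9 genes, all of the V-ATPase and its accessory proteins, were higher in CA3 than in DG.

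Among the beta subunits of the sodium-potassium pump, Atp1b2 was lower in CA3 than in DG in the 3 frozen conditions. Atp1b2 encodes beta2, known as an adhesion molecule on glia (chr11:69599736-69605942, minus strand, GRCm38). In bulk values of this kind, fewer cells of a type and less RNA per cell cannot be told apart. Fresh-frozen HCl sections had Atp1b2 at 494, 444, 472 and 511 CPM in CA1, 511, 412, 395 and 484 CPM in CA3 and 735, 690.2, 673 and 728 CPM in DG. Fresh-frozen TE sections had 363, 345, 370.1 and 453 CPM in CA1, 342, 321, 332 and 334 CPM in CA3 and 500.1, 453, 394 and 509 CPM in DG. DG was highest in both, and only the CA1 values of fresh-frozen TE sections overlapped those of DG. Atp1b2 was at 232, 182, 179 and 239.8 CPM in CA1, 244, 120.0, 109.6 and 189 CPM in CA3 and 455, 352, 363 and 294 CPM in DG of fixed frozen TE sections. Paraffin TE sections gave 171, 180.0, 127 and 111 CPM in CA1, 165, 201, 251 and 150.4 CPM in CA3 and 264, 400.1, 403 and 342 CPM in DG. Here again no CA1 or CA3 replicate reached the lowest DG replicate. For CA3 over DG the log2 fold changes were -0.65 ± 0.14, -0.48 ± 0.15 and -1.16 ± 0.23 (SE), with adjusted p = 0.00213, 0.0346 and 2.97e-05 in fresh-frozen HCl, fresh-frozen TE and fixed frozen TE sections, and -0.80 with adjusted p = 0.108 in paraffin TE sections. The Atp1b2 call in fresh-frozen TE sections was lost when CA3 replicate 1, 2 or 3 or DG replicate 1, 2 or 4 was left out (adjusted p from 0.057 to 0.117). Atp1b2 kept its call in fresh-frozen HCl and fixed frozen TE sections with any 1 of the 8 replicates left out. With scaling from all genes the fresh-frozen TE call was lost as well (adjusted p = 0.0702).

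For CA1 over DG the log2 fold changes of Atp1b2 were -0.52 ± 0.17, -0.83 ± 0.23 and -1.08 ± 0.31 (SE), with adjusted p = 0.023, 0.00574 and 0.0222 in fresh-frozen HCl, fixed frozen TE and paraffin TE sections. In fresh-frozen TE sections the log2 fold change was -0.28 with adjusted p = 0.287, and adjusted p = 0.0452 with the replicate block. The Atp1b2 call in fresh-frozen HCl sections was lost when CA1 replicate 1, 2 or 3 or DG replicate 1 or 4 was left out (adjusted p from 0.0537 to 0.108). The Atp1b2 call in fixed frozen TE sections was lost when CA1 replicate 2 was left out (adjusted p = 0.0718). The Atp1b2 call in paraffin TE sections was lost when CA1 replicate 3 or 4 or DG replicate 2 or 3 was left out (adjusted p from 0.069 to 0.114). The paraffin TE call was also lost without the filter on low counts (adjusted p = 0.0529) and with DESeq2 (adjusted p = 0.0535). Of 8 astrocyte markers, 2 were called lower in CA3 than in DG in fresh-frozen HCl, 4 in fresh-frozen TE and 1 each in fixed frozen TE and paraffin TE sections, and 1 was higher in fresh-frozen HCl. Summed over the 8 genes they were at 3097 to 4069 CPM in DG of fresh-frozen HCl sections against 1995 to 2423 CPM in CA1 and 2430 to 3057 CPM in CA3. The sums in fixed frozen TE sections were 969 to 1413 CPM in DG, 553 to 1067 CPM in CA1 and 436 to 1073 CPM in CA3. In paraffin TE sections they were 1064 to 1758 CPM in DG, 576 to 975 CPM in CA1 and 736 to 1128 CPM in CA3. Whether the share of astrocytes set the Atp1b2 difference was not tested.

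**Figure D2:**
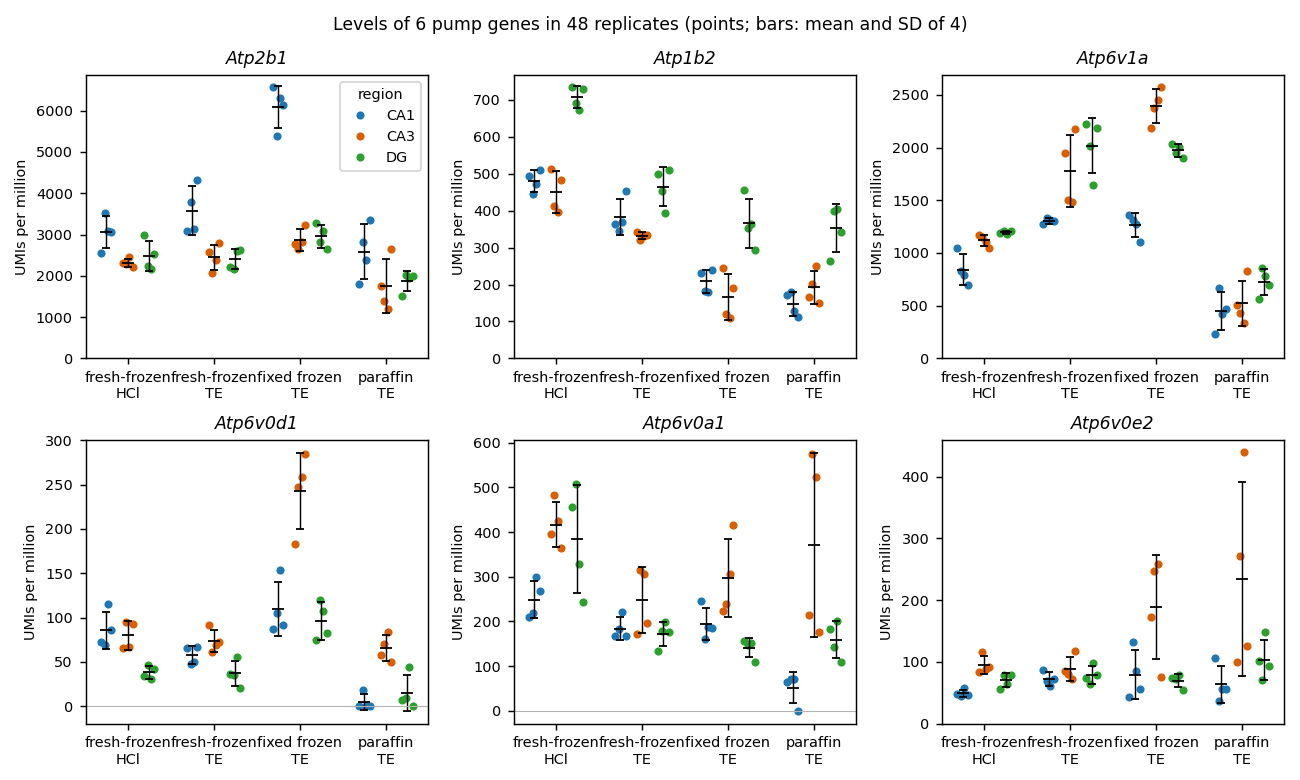
CPM of Atp2b1, Atp1b2, Atp6v1a, Atp6v0d1, Atp6v0a1 and Atp6v0e2 by region and condition, with 1 point per replicate and the mean and SD of 4 replicates. Atp1b2 was highest in DG in each condition, Atp2b1 was highest in CA1 in fixed frozen TE sections and Atp6v0d1 was at 0 in 3 of the 4 CA1 replicates of paraffin TE sections.

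The other beta subunits differed less between regions. For Atp1b1, the main neuronal beta subunit, the adjusted p was 0.249 or more and the log2 fold changes were from -0.35 to 0.44. Atp1b3 was called once, higher in CA1 than in DG in fresh-frozen HCl sections (0.77, adjusted p = 0.0227), and that call was lost when CA1 replicate 1 or 4 or DG replicate 2 or 4 was left out (adjusted p from 0.0501 to 0.114). Atp1a4 and Atp1b4, whose proteins belong to sperm and muscle, had 4 and 14 UMIs in all 48 replicates together.

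Within the beta subunits the shares of the isoforms lay far apart between tissue preparations. Atp1b3 held 9.35% ± 1.13 (SD, n = 4), 9.29% ± 2.20 and 6.53% ± 2.18 of the beta subunit UMIs in CA1, CA3 and DG of fixed frozen TE sections, and 38.4% ± 7.12, 32.2% ± 8.14 and 25.9% ± 9.19 in paraffin TE sections. In each region every paraffin TE replicate was above every fixed frozen TE replicate. Two-sided exact permutation tests of 4 against 4 replicates gave p = 0.0286 for 66 of 147 comparisons of shares within the beta subunits and the plasma membrane calcium pumps, which is the smallest possible value, and adjusted p = 0.0636 at the lowest, so 0 passed the correction. Shares compare UMIs of genes that differ in length and 3' end, so only changes between samples can be read.

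**Figure D3:**
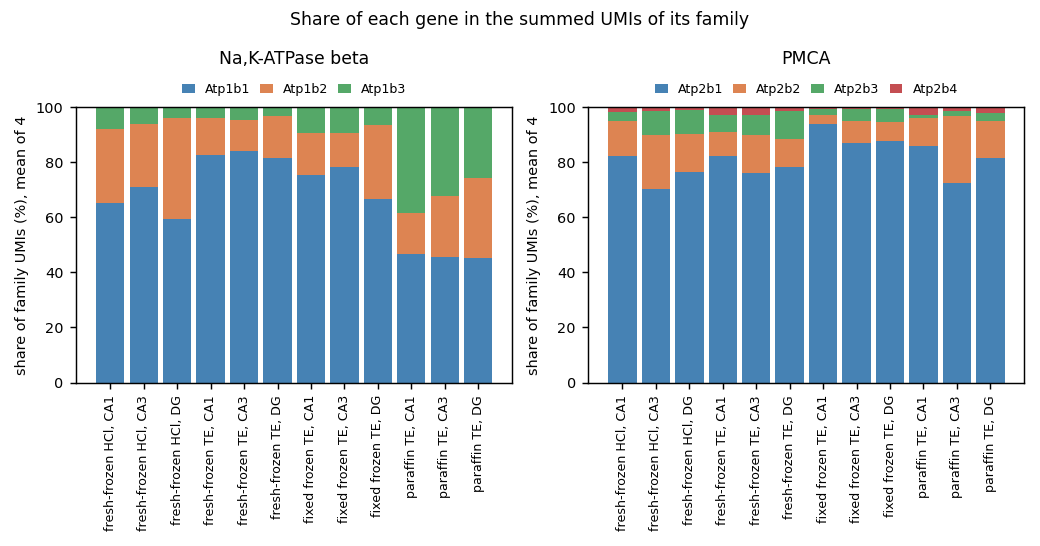
Mean share of each isoform in the UMIs of the sodium-potassium pump beta subunits and of the plasma membrane calcium pumps, by region and condition (n = 4 replicates per bar). The share of Atp1b3 is largest in paraffin TE sections in each region.

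Among the regulators of this pump, a fixed list of 11 FXYD and Nkain genes, Fxyd7 stood out in CA3. FXYD7 is a small brain protein that binds the pump and lowers its affinity for potassium. Fxyd7 was at 16.4, 18.0, 47.2 and 23.6 CPM in CA1, 70.8, 112, 86.4 and 76.6 CPM in CA3 and 39.7, 40.3, 24.1 and 25.1 CPM in DG of fresh-frozen HCl sections. It was at 29.0, 11.1, 17.1 and 73.8 CPM in CA1, 224, 191, 188 and 303 CPM in CA3 and 37.3, 48.8, 37.1 and 45.9 CPM in DG of fixed frozen TE sections. All CA3 replicates were above all others in both conditions. For CA3 over DG the log2 fold changes were 1.42 ± 0.25, 1.27 ± 0.32, 2.37 ± 0.32 and 3.64 ± 0.60 (SE), with adjusted p = 0.000324, 0.00972, 9.62e-12 and 2.2e-06 in fresh-frozen HCl, fresh-frozen TE, fixed frozen TE and paraffin TE sections. For CA1 over CA3 they were -1.63 ± 0.27, -3.10 ± 0.43 and -2.74 ± 0.70 (SE), with adjusted p = 0.000115, 5.55e-11 and 0.00477 in fresh-frozen HCl, fixed frozen TE and paraffin TE sections. Of the list, 7, 8, 4 and 4 genes were tested between CA3 and DG in the 4 conditions, with Fxyd7 the 1 gene called in each. Between CA1 and CA3, Nkain3, of a family that binds the beta1 subunit, was lower in CA1 in fresh-frozen HCl (-1.53, adjusted p = 0.0157) and fresh-frozen TE sections (-1.52, adjusted p = 0.00234), and Fxyd1, which is astrocytic in the brain, in fresh-frozen HCl sections (-0.91, adjusted p = 0.0185).

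The calcium pumps had 11 calls against DG over the 4 conditions, of which 10 were higher in CA1 or CA3 and 1, Atp2b3 in CA1 of fresh-frozen HCl sections, was lower. Per comparison, 1.43 to 9.12% of all genes were higher and 1.3 to 8.02% lower. The CA1 and CA3 comparisons of a condition share their DG replicates. Of the 8 genes 6 were tested in each region comparison. Atp2b1 encodes PMCA1, the calcium pump of most plasma membranes (chr10:98914406-99026143, plus strand, GRCm38). Atp2b1 was at 3092, 3779, 3123 and 4325 CPM in CA1, 2576, 2061, 2374 and 2783 CPM in CA3 and 2224, 2159, 2602 and 2622 CPM in DG of fresh-frozen TE sections. It was at 6562, 5379, 6300.2 and 6125 CPM in CA1, 2770.2, 2639.7, 2818 and 3239 CPM in CA3 and 3287, 2819.5, 3077 and 2642 CPM in DG of fixed frozen TE sections. All CA1 replicates were above all replicates of the other regions in both conditions. For CA1 over DG the log2 fold changes were 0.58 ± 0.14 and 1.08 ± 0.17 (SE), with adjusted p = 0.00496 and 1.71e-08 in that order. For CA1 over CA3 they were 0.55 ± 0.15 and 1.09 ± 0.16 (SE), with adjusted p = 0.0356 and 4.1e-09. Atp2b1 kept its call in fresh-frozen TE and fixed frozen TE sections with any 1 of the 8 replicates left out. Between CA1 and CA3, the fixed frozen TE call was kept with any replicate left out, and the fresh-frozen TE call was lost when CA1 replicate 2 or 4 or CA3 replicate 1, 2 or 3 was left out (adjusted p from 0.0728 to 0.172) and with DESeq2 size factors (adjusted p = 0.0503). In fresh-frozen HCl sections the CA1 replicates, at 2561, 3519.6, 3080.4 and 3057 CPM, were above those of CA3, at 2317, 2278, 2451 and 2222 CPM, with adjusted p = 0.051. In paraffin TE sections the adjusted p was 0.148 against DG and 0.243 against CA3, and replicates overlapped.

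Atp2b1 reached 2692 UMIs in 1 replicate, of 4096 UMIs that 6 bases can form, so different molecules are expected to have shared UMIs in the deepest replicates. The number of molecules expected from that count is 4386. Calls for Atp2b1 were kept when counts were corrected for such collisions.

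Atp2b2 encodes PMCA2, a fast calcium pump of neurons. Atp2b2 was at 562, 708, 690.1 and 604 CPM in CA3 and 499.6, 490.1, 416 and 406 CPM in DG of fresh-frozen HCl sections. It was at 379, 448, 516 and 406 CPM in CA3 and 301, 296, 341 and 333 CPM in DG of fresh-frozen TE sections. It was at 364, 484, 690.2 and 702 CPM in CA3 and 251, 338, 363 and 296 CPM in DG of paraffin TE sections. CA3 and DG did not overlap in these conditions, though the gap was narrow. Atp2b2 had log2 fold changes of 0.49 ± 0.14, 0.46 ± 0.15 and 0.86 ± 0.27 (SE), with adjusted p = 0.0252, 0.0469 and 0.0449. The Atp2b2 call in fresh-frozen HCl sections was lost when CA3 replicate 2 or 3 or DG replicate 3 or 4 was left out (adjusted p from 0.0666 to 0.0887). The Atp2b2 call in fresh-frozen TE sections was lost when CA3 replicate 2, 3 or 4 or DG replicate 1, 2, 3 or 4 was left out (adjusted p from 0.0531 to 0.154). The Atp2b2 call in paraffin TE sections was lost when CA3 replicate 2, 3 or 4 or DG replicate 1, 2, 3 or 4 was left out (adjusted p from 0.0626 to 0.16). Scaling from all genes gave adjusted p = 0.0776 in paraffin TE sections. That call was also lost with DESeq2, with its size factors, without the filter on low counts and after thinning (adjusted p from 0.0625 to 0.265). The fresh-frozen TE call was lost without the filter (adjusted p = 0.06215), and its sign changed after thinning (-0.090). The log2 fold change in fixed frozen TE sections was 0.14 with adjusted p = 0.81.

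Atp2b4 encodes PMCA4 and was the least counted plasma membrane pump. Atp2b4 was at 56.1, 36.1, 110.4 and 55.0 CPM in CA1 and 22.7, 40.3, 38.1 and 29.3 CPM in DG of fresh-frozen HCl sections. It was at 98.8, 158, 136 and 135 CPM in CA1 and 32.5, 47.7, 57.0 and 50.9 CPM in DG of fresh-frozen TE sections. CA1 and DG overlapped in the first condition and not in the second. Atp2b4 had log2 fold changes of 1.00 ± 0.30 and 1.48 ± 0.22 (SE), with adjusted p = 0.015 and 5.21e-06. The Atp2b4 call in fresh-frozen HCl sections was lost when CA1 replicate 3 was left out (adjusted p = 0.285). Atp2b4 kept its call in fresh-frozen TE sections with any 1 of the 8 replicates left out. DESeq2 gave adjusted p = 0.0757 for the former. Atp2b3, the neuronal PMCA3, was lower in CA1 than in both other regions in fresh-frozen HCl sections (-1.02 against DG, adjusted p = 0.00023, and -1.03 against CA3, adjusted p = 0.000268). Its other 10 region comparisons had adjusted p of 0.175 or more. Atp2a2, the SERCA2 pump that refills the endoplasmic reticulum, was higher than in DG in CA1 (0.49, adjusted p = 0.0135) and CA3 (0.62, adjusted p = 0.00369) of fresh-frozen TE sections. Of these, the call in CA1 was lost when DG replicate 2 or 3 was left out (adjusted p from 0.0555 to 0.0674). Atp2c1, the Golgi pump for calcium and manganese, had adjusted p of 0.0972 or more between regions. Of 5 partners of the calcium pumps, which are PMCA subunits and sodium-calcium exchangers, 1 was called against DG in CA1 and 1 in CA3 of fresh-frozen HCl sections. It was the sodium-calcium exchanger gene Slc8a2, whose product exports calcium with the sodium gradient, at -1.20 ± 0.18 (SE), with adjusted p = 3.24e-06 in CA1 and -0.70 ± 0.15 (SE), with adjusted p = 0.00214 in CA3. Bsg, a subunit partner of the plasma membrane pumps, was higher in CA3 than in DG in fixed frozen TE sections (0.98 ± 0.33 (SE), with adjusted p = 0.0341), where Slc8a2 was lower (-0.47 ± 0.16 (SE), with adjusted p = 0.0491). Nptn, another subunit partner, was higher in CA1 than in DG in fresh-frozen TE sections (0.44 ± 0.14 (SE), with adjusted p = 0.0419).

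The V-ATPase and its accessory proteins made up 17 of the 22 calls higher in CA3 than in DG over the 4 conditions. They were also most of the pump genes with at least 100 UMIs, with 9 V1, 6 V0 and 2 accessory genes of 29. In fixed frozen TE sections 8 of the 15 tested V1 and V0 genes were higher in CA3 than in DG and 0 lower (4.77% and 4.61% of all genes). Their median log2 fold change was 0.64, against -0.04 over all genes tested. The other conditions had 1 higher in fresh-frozen HCl (median 0.21), 2 in fresh-frozen TE (median 0.31) and 3 in paraffin TE sections (median 0.16), with 0 lower in each. Of all genes, 4.11%, 3.7% and 2.4% were higher in these conditions. After thinning to equal depth 1 pump gene was higher and 2 were lower in CA3 than in DG of fixed frozen TE sections. Of the 22 V1 and V0 genes, 7 had too few UMIs to be tested. Markers of other cells differed between CA3 and DG in some conditions. Summed over 4 choroid plexus markers, fixed frozen TE sections had 198 to 1996 CPM in CA3, 22.4 to 27.5 CPM in DG and 0 to 42.6 CPM in CA1, with every CA3 replicate above all others, and 2 of the 4 were at 0 in CA1 and 2 in DG. In fresh-frozen TE sections these sums overlapped, at 159 to 1085 CPM in CA3 and 57.7 to 2639 CPM in DG, as they did at 272 to 1148 and 35.9 to 8915 CPM in paraffin TE sections. Sums in fresh-frozen HCl sections overlapped too, at 47.9 to 377 CPM in CA3 and 52.0 to 2330 CPM in DG. Of 4 excitatory neuron markers 2 were higher in CA3 than in DG in fixed frozen TE and 2 in paraffin TE sections, and 0 were lower there. Their sums overlapped in fixed frozen TE sections, at 2045 to 2536 CPM in CA3 and 1856 to 2553 CPM in DG. Median sums in paraffin TE sections were 2316 CPM in CA3 and 1614 CPM in DG. Medians were lower in CA3 than in DG in fresh-frozen HCl (3156 and 3686 CPM) and fresh-frozen TE sections (3065 and 3763 CPM). The part of these cells in the V-ATPase difference was not tested. Against CA3, CA1 had 4 of 14 V-ATPase genes lower in fixed frozen TE sections, where the median was -0.49 and 3.71% of all genes were lower. CA1 had 0 V-ATPase genes higher in any condition, where 0.801 to 5.01% of all genes were. For so few genes, 0 is near that share.

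The promoters of 4 V-ATPase genes and of Atp2b1, picked by hand from the genes named here, are shown because many lysosomal genes are known to carry the E-box letters CACGTG near their start. The share of matches among them is not that of all pump genes, which is given below. The promoters shown run from 250 bases before to 50 after the start site in RefSeq (GRCm38.p6), read on the gene's strand. Capitals mark CACGTG, which reads the same on both strands. Atp6v0d1 lies at chr8:105566015-105566314 (minus strand), Atp6v1a at chr16:44139210-44139509 (minus strand), Atp6v0b at chr4:117887280-117887579 (minus strand), Atp6v0e2 at chr6:48537319-48537618 (plus strand) and Atp2b1 at chr10:98914392-98914691 (plus strand, 1 of its 2 listed promoters, chosen for its match).
Atp6v0d1: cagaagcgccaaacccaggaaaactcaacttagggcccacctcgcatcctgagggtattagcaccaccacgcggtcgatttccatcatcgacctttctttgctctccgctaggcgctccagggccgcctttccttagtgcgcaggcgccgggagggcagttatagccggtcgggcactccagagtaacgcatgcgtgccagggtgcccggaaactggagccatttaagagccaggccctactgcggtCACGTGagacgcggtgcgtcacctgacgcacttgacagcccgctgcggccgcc
Atp6v1a: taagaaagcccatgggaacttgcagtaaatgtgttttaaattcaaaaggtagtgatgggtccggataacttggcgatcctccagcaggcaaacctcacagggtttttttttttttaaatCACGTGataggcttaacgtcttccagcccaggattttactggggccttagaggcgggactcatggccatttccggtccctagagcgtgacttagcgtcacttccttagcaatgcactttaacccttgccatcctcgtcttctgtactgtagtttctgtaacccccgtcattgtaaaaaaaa
Atp6v0b: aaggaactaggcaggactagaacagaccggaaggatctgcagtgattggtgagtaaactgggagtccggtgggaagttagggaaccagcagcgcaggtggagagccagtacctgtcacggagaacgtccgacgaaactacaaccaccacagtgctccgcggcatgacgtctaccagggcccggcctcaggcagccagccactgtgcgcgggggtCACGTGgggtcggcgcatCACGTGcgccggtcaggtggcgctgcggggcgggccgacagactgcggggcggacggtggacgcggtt
Atp6v0e2: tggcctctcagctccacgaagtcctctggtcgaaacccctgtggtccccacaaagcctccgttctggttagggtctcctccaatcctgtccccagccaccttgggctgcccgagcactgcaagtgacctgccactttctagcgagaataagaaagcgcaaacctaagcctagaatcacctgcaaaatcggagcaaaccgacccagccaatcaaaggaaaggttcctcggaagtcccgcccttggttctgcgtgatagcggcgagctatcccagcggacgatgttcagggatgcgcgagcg
Atp2b1: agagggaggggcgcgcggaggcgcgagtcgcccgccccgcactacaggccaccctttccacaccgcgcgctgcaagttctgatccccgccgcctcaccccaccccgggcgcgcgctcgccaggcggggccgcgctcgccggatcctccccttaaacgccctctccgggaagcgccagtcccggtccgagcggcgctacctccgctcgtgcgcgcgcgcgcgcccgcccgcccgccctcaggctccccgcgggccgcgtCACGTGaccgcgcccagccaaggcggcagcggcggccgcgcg

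The letters begin 3 bases before the start site in Atp6v0d1, 131 bases before it in Atp6v1a and 36 bases before it for the first of the 2 matches in Atp6v0b, and Atp2b1 has them just after the start site. Atp6v0e2 has no match in this window. RefSeq promoters were found for 27 of the 41 genes, and CACGTG was in 6 of their 35 promoters (17.1%), against 7.15% of all 32851 promoters. The longer form TCACGTGA, which contains CACGTG, was in 4 of the 35 (11.4%), those of Atp6v0d1, Atp2b1, Atp6v1a and Atp6v0e, against 0.974% of all. A match is a description of letters and was not tied to binding or to the region differences.

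Atp6v0d1 encodes the d1 subunit that couples the V0 ring to the V1 stalk. Atp6v0d1 was at 65.4, 95.3, 66.7 and 93.0 CPM in CA3 and 34.1, 46.5, 30.5 and 41.9 CPM in DG of fresh-frozen HCl sections. It was at 91.4, 61.2, 69.7 and 72.3 CPM in CA3 and 36.6, 35.8, 55.4 and 20.4 CPM in DG of fresh-frozen TE sections. It was at 183, 247, 258 and 284 CPM in CA3 and 74.5, 120.5, 107 and 82.6 CPM in DG of fixed frozen TE sections. Every CA3 replicate was above every DG replicate in these conditions. Atp6v0d1 had log2 fold changes of 1.08 ± 0.23, 0.90 ± 0.24 and 1.30 ± 0.26 (SE), with adjusted p = 0.00297, 0.015 and 3.39e-05. The Atp6v0d1 call in fresh-frozen TE sections was lost when CA3 replicate 1 or DG replicate 2 or 4 was left out (adjusted p from 0.0527 to 0.0635). Atp6v0d1 kept its call in fresh-frozen HCl and fixed frozen TE sections with any 1 of the 8 replicates left out. Paraffin TE sections had 57.9, 70.5, 83.7 and 50.1 CPM in CA3 and 6.78, 8.89, 44.8 and 0 CPM in DG, which did not overlap (log2 fold change 1.70, adjusted p = 0.106). The DG values of 6.78 and 8.89 CPM were 1 UMI each, in totals of 147509 and 112473. CA1 was at 72.5, 68.9, 115 and 86.4 CPM in fresh-frozen HCl sections, 1.21 ± 0.25 (SE), with adjusted p = 0.000597, on the log2 scale over DG. In fixed frozen TE sections CA1, at 86.9, 105, 153 and 92.2 CPM, was below CA3 (-1.09 ± 0.30 (SE), with adjusted p = 0.00595), a call lost when CA1 replicate 2 was left out (adjusted p = 0.0532).

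Atp6v0e2 encodes an e subunit of the V0 sector that is enriched in brain. Atp6v0e2 was at 43.5, 133, 85.3 and 55.3 CPM in CA1, 173, 247, 258 and 75.8 CPM in CA3 and 74.5, 71.6, 78.4 and 55.0 CPM in DG of fixed frozen TE sections. Fresh-frozen TE sections had 87.3, 69.3, 60.8 and 72.9 CPM in CA1, 85.5, 80.1, 71.8 and 117 CPM in CA3 and 73.2, 64.7, 99.0 and 78.1 CPM in DG. In the former 3 CA3 replicates were above all others and replicate 4 was not, while in the latter the regions overlapped. Paraffin TE sections had 107, 36.0, 56.5 and 55.7 CPM in CA1, 99.3, 272, 439 and 125 CPM in CA3 and 102, 71.1, 148 and 93.4 CPM in DG, with wide spread in CA3. The log2 fold changes of CA3 over DG were 1.57 ± 0.29 and 1.11 ± 0.35 (SE), with adjusted p = 2.58e-06 and 0.0494 in fixed frozen TE and paraffin TE sections. The Atp6v0e2 call in paraffin TE sections was lost when CA3 replicate 2 or 3 or DG replicate 1, 2, 3 or 4 was left out (adjusted p from 0.0608 to 0.392). Atp6v0e2 kept its call in fixed frozen TE sections with any 1 of the 8 replicates left out. Scaling from all genes gave adjusted p = 0.0776 in paraffin TE sections. The paraffin TE call was also lost with DESeq2, with its size factors, with both other filter settings and after thinning (adjusted p from 0.0637 to 0.266). In fresh-frozen TE sections the log2 fold change was 0.14 with adjusted p = 0.802.

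For CA1 over CA3 the log2 fold changes of Atp6v0e2 were -0.92 ± 0.21, -1.16 ± 0.32 and -1.74 ± 0.48 (SE), with adjusted p = 0.00309, 0.0061 and 0.017 in fresh-frozen HCl, fixed frozen TE and paraffin TE sections. In the first of these CA1, at 47.9, 44.3, 57.5 and 47.2 CPM, lay below every CA3 replicate, at 83.6, 116, 88.9 and 91.6 CPM. The Atp6v0e2 call in fixed frozen TE sections was lost when CA3 replicate 2 or 3 was left out (adjusted p from 0.0568 to 0.0637). The Atp6v0e2 call in paraffin TE sections was lost when CA1 replicate 2, 3 or 4 or CA3 replicate 2 or 3 was left out (adjusted p from 0.0726 to 0.226). Atp6v0e2 kept its call in fresh-frozen HCl sections with any 1 of the 8 replicates left out. DESeq2 lost the fixed frozen TE call (adjusted p = 0.0987) and the paraffin TE call (adjusted p = 0.0952). Atp6v0e2 was also the 1 pump gene whose CA3 over DG difference changed between conditions by an interaction term. The difference was larger in fixed frozen TE than in fresh-frozen TE sections by 1.47 ± 0.37 (SE) on the log2 scale, with adjusted p = 0.0458, where 0.132% of all genes had a higher difference called. This call was lost in 13 of 24 omissions of 1 replicate (adjusted p from 0.0509 to 0.254) and with scaling from all genes (adjusted p = 0.110).

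**Figure D4:**
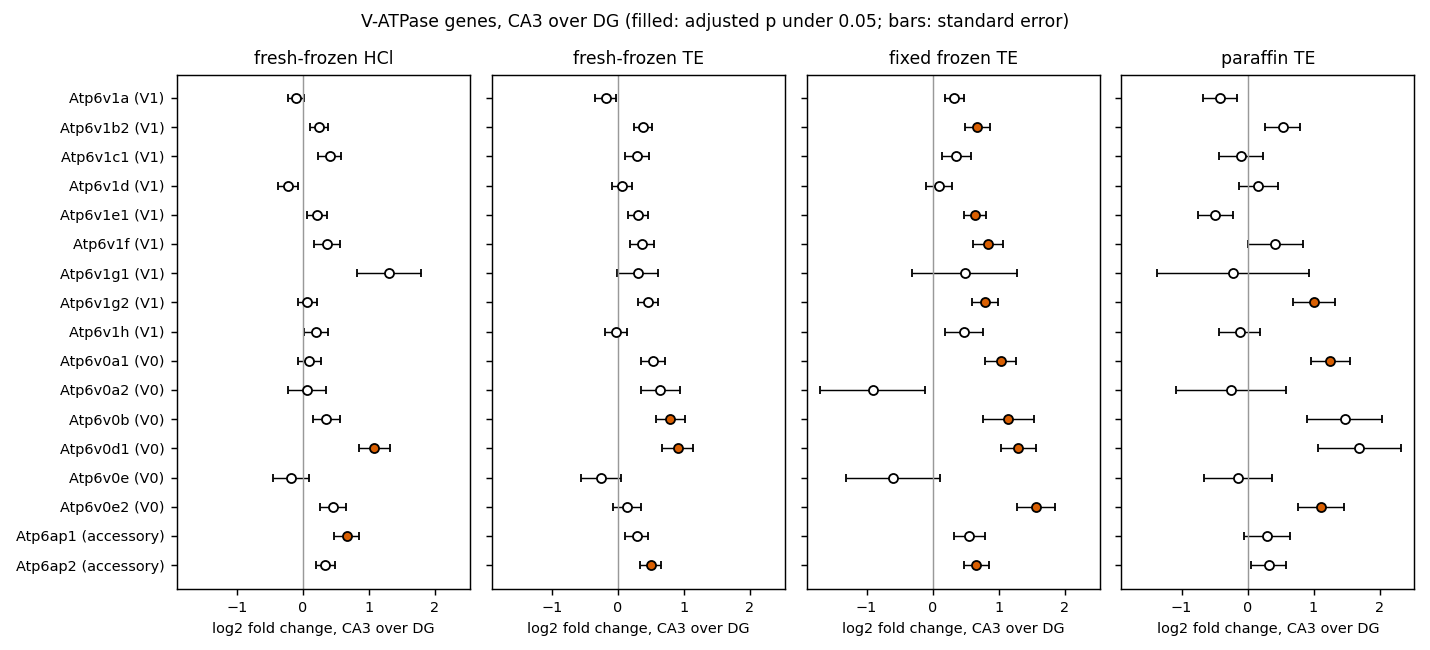
Log2 fold change of CA3 over DG for V-ATPase genes in the 4 conditions, with the SE from the model. In fixed frozen TE sections Atp6v0e2, Atp6v0d1, Atp6v0b and Atp6v0a1 lay above 1, and Atp6v0e2 was near 0 in fresh-frozen TE sections.

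Atp6v0a1 encodes the a1 subunit, through which protons pass in pumps of synaptic vesicles. Atp6v0a1 was at 224, 240.0, 305 and 417 CPM in CA3 and 157, 147, 153 and 110.1 CPM in DG of fixed frozen TE sections, with no overlap. Paraffin TE sections had 64.0, 72.0, 70.6 and 0 CPM in CA1, 215, 574, 523 and 175 CPM in CA3 and 183, 142, 202 and 109 CPM in DG, and CA1 was lowest. Fresh-frozen HCl sections had 211, 218, 300.2 and 267 CPM in CA1 and 396, 483, 425 and 364 CPM in CA3, again with CA1 lower throughout. For CA3 over DG the log2 fold changes were 1.03 ± 0.24 and 1.25 ± 0.30 (SE), with adjusted p = 0.000517 and 0.00363 in fixed frozen TE and paraffin TE sections. The Atp6v0a1 call in paraffin TE sections was lost when CA3 replicate 2 was left out (adjusted p = 0.163). Atp6v0a1 kept its call in fixed frozen TE sections with any 1 of the 8 replicates left out. For CA1 over CA3 they were -0.73 ± 0.16 and -2.62 ± 0.44 (SE), with adjusted p = 0.00267 and 1.05e-06 in fresh-frozen HCl and paraffin TE sections, and both were kept with any 1 replicate left out.

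Atp6v0b encodes the c'' subunit of the proton-carrying ring. Atp6v0b was at 78.1, 117, 104 and 91.8 CPM in CA3 and 34.6, 69.9, 73.8 and 40.8 CPM in DG of fresh-frozen TE sections. It was at 61.1, 113, 109.6 and 75.8 CPM in CA3 and 29.8, 45.6, 49.5 and 45.9 CPM in DG of fixed frozen TE sections. CA3 was above DG in every replicate of both conditions. Atp6v0b had log2 fold changes of 0.80 ± 0.22 and 1.15 ± 0.38 (SE), with adjusted p = 0.0197 and 0.0299. The Atp6v0b call in fresh-frozen TE sections was lost when CA3 replicate 2 or DG replicate 1 or 4 was left out (adjusted p from 0.0608 to 0.104). The Atp6v0b call in fixed frozen TE sections was lost when CA3 replicate 2 or 3 or DG replicate 1, 2 or 3 was left out (adjusted p from 0.0581 to 0.157). DESeq2 gave adjusted p = 0.144 in fixed frozen TE sections. Of the bases in exons of Atp6v0b, 11.8% overlap Gm12841, so reads there could belong to either gene.

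In the V1 sector, Atp6v1g2, the neuronal form of the stalk subunit G, was at 346, 536, 462 and 359.8 CPM in CA3 and 186, 309, 259.9 and 275 CPM in DG of fixed frozen TE sections. Atp6v1g2 was at 99.3, 393, 439 and 301 CPM in CA3 and 156, 133, 170.4 and 140.0 CPM in DG of paraffin TE sections. The regions did not overlap in the former, and CA3 replicate 1 was the lowest of all in the latter. Atp6v1g2 had log2 fold changes of 0.79 ± 0.20 and 1.01 ± 0.32 (SE), with adjusted p = 0.00169 and 0.0494. The Atp6v1g2 call in paraffin TE sections was lost when CA3 replicate 2, 3 or 4 or DG replicate 1, 2, 3 or 4 was left out (adjusted p from 0.0799 to 0.33). Atp6v1g2 kept its call in fixed frozen TE sections with any 1 of the 8 replicates left out. The paraffin TE call was lost with scaling from all genes (adjusted p = 0.0792). It was also lost with DESeq2, with its size factors, with both other filter settings and after thinning (adjusted p from 0.0657 to 0.306). Atp6v1b2, Atp6v1e1 and Atp6v1f, which encode the B2 subunit of the catalytic head, the stalk subunit E1 and the rotor subunit F, were also higher in CA3 than in DG in fixed frozen TE sections (0.68, 0.64 and 0.83, with adjusted p = 0.00699, 0.00263 and 0.00578). The Atp6v1f call was lost when CA3 replicate 2 or DG replicate 3 was left out (adjusted p from 0.0683 to 0.109). Atp6v1f has a copy of 98.5% identity over 202 bases elsewhere in the genome, which makes its counts uncertain.

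Atp6v1a, which encodes the catalytic A subunit, was lower in CA1 than in DG. Atp6v1a was at 1051, 826, 789 and 699 CPM in CA1 and 1189, 1211, 1182 and 1206 CPM in DG of fresh-frozen HCl sections. It was at 1272, 1330.1, 1311 and 1301 CPM in CA1 and 2226, 2017, 1647 and 2184 CPM in DG of fresh-frozen TE sections. It was at 1362, 1316, 1270.3 and 1107 CPM in CA1 and 2035, 1950.2, 2005 and 1899 CPM in DG of fixed frozen TE sections. All DG replicates were above all CA1 replicates in each of these conditions. Atp6v1a had log2 fold changes of -0.46 ± 0.17, -0.63 ± 0.14 and -0.60 ± 0.17 (SE), with adjusted p = 0.04998, 0.00124 and 0.007. The Atp6v1a call in fresh-frozen HCl sections was lost when CA1 replicate 2 or 3 or DG replicate 1, 2, 3 or 4 was left out (adjusted p from 0.0726 to 0.203). Atp6v1a kept its call in fresh-frozen TE and fixed frozen TE sections with any 1 of the 8 replicates left out. The fresh-frozen HCl call was also lost without the filter on low counts (adjusted p = 0.0842). In fixed frozen TE sections CA3, at 2189.7, 2379, 2450.2 and 2576 CPM, was also above CA1 (-0.92 ± 0.17 (SE), with adjusted p = 3.21e-06).

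Atp6v1b2 was lower in CA1 than in CA3. Atp6v1b2 was at 425, 333, 358 and 343 CPM in CA1 and 511, 546, 462 and 563 CPM in CA3 of fresh-frozen TE sections. It was at 203, 232, 230.2 and 314 CPM in CA1 and 581, 501, 446 and 473 CPM in CA3 of fixed frozen TE sections. No CA1 replicate reached the lowest CA3 replicate. Atp6v1b2 had log2 fold changes of -0.51 ± 0.14 and -1.07 ± 0.23 (SE), with adjusted p = 0.0384 and 0.000108. The Atp6v1b2 call in fresh-frozen TE sections was lost when CA1 replicate 2, 3 or 4 or CA3 replicate 1, 2 or 4 was left out (adjusted p from 0.0717 to 0.119). Atp6v1b2 kept its call in fixed frozen TE sections with any 1 of the 8 replicates left out.

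The accessory genes Atp6ap1 and Atp6ap2 encode membrane proteins that help to assemble the V-ATPase, and Atp6ap2 is also known as the prorenin receptor. Atp6ap1 was at 138, 95.1, 124 and 62.9 CPM in CA1 and 76.6, 69.8, 81.2 and 58.6 CPM in DG of fresh-frozen HCl sections. It was at 159.6, 173, 161 and 170.0 CPM in CA1 and 109.8, 107, 144 and 91.7 CPM in DG of fresh-frozen TE sections. CA1 and DG overlapped in the former through CA1 replicate 4. Atp6ap1 had log2 fold changes of 0.65 ± 0.21 and 0.52 ± 0.18 (SE), with adjusted p = 0.0293 and 0.0492. The Atp6ap1 call in fresh-frozen HCl sections was lost when CA1 replicate 1 or 3 or DG replicate 2 or 4 was left out (adjusted p from 0.0589 to 0.126). The Atp6ap1 call in fresh-frozen TE sections was lost when CA1 replicate 1, 2, 3 or 4 or DG replicate 1, 2 or 4 was left out (adjusted p from 0.06 to 0.141). With DESeq2 the adjusted p was 0.127 and 0.0755.

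Atp6ap2 was higher in CA3 than in DG in fresh-frozen TE and fixed frozen TE sections. It was higher in CA3 than in CA1 in fresh-frozen HCl and fresh-frozen TE sections only. CA1 was also called above DG in fixed frozen TE sections, as given below. Atp6ap2 was at 456, 289, 365 and 405 CPM in CA1, 569, 536, 503 and 756 CPM in CA3 and 468, 379.9, 419 and 404 CPM in DG of fresh-frozen TE sections. It was at 666, 398, 401 and 812 CPM in CA1, 468, 558, 407 and 587 CPM in CA3 and 313, 277, 351 and 385 CPM in DG of fixed frozen TE sections. CA3 was above DG throughout, and CA1 spread widely in the latter. Fresh-frozen HCl sections had 297, 248, 234 and 251 CPM in CA1 and 401, 344, 325 and 401 CPM in CA3. For CA3 over DG the log2 fold changes were 0.50 ± 0.16 and 0.66 ± 0.19 (SE), with adjusted p = 0.0447 and 0.00873 in fresh-frozen TE and fixed frozen TE sections. The Atp6ap2 call in fresh-frozen TE sections was lost when CA3 replicate 1 or 4 or DG replicate 1, 2, 3 or 4 was left out (adjusted p from 0.0537 to 0.211). The Atp6ap2 call in fixed frozen TE sections was lost when CA3 replicate 2 or DG replicate 2 was left out (adjusted p from 0.0581 to 0.0716). DESeq2 lost the fixed frozen TE call (adjusted p = 0.0525). For CA1 over CA3 they were -0.49 ± 0.15 and -0.64 ± 0.17 (SE), with adjusted p = 0.0406 and 0.0214 in fresh-frozen HCl and fresh-frozen TE sections. These calls were lost when CA1 replicate 2 or 3 or CA3 replicate 1 or 4 was left out (adjusted p from 0.0953 to 0.175) in fresh-frozen HCl and when CA1 replicate 2 or 3 or CA3 replicate 4 was left out (adjusted p from 0.0682 to 0.115) in fresh-frozen TE sections. Without the filter on low counts the adjusted p in fresh-frozen HCl sections was 0.0560.

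Of the list of 13 V-ATPase partners, 11 were in the table and 10 or 11 were tested in each region comparison. Between CA3 and DG, 3 were higher and 1 lower in fresh-frozen HCl (4.11% and 4.85% of all genes), 2 higher in fresh-frozen TE (3.7%), 1 higher in fixed frozen TE (4.77%) and 0 in paraffin TE sections. Dmxl2 and Wdr7 encode rabconnectin-3, which binds the V1 sector and helps it assemble on synaptic vesicles. Dmxl2 was higher in CA3 than in DG in fresh-frozen HCl (0.45 ± 0.14 (SE), with adjusted p = 0.0484) and fixed frozen TE sections (0.66 ± 0.22 (SE), with adjusted p = 0.0341). Wdr7 was higher in fresh-frozen HCl (0.74 ± 0.17 (SE), with adjusted p = 0.00597) and fresh-frozen TE sections (0.57 ± 0.18 (SE), with adjusted p = 0.0447). In CA1 both were lower than in CA3 in fresh-frozen HCl sections (-0.65 ± 0.16 (SE), with adjusted p = 0.00635 for Dmxl2 and -0.74 ± 0.18 (SE), with adjusted p = 0.00566 for Wdr7). Rogdi, a further partner of rabconnectin-3, was lower in CA3 than in DG in fresh-frozen HCl sections (-0.95 ± 0.19 (SE), with adjusted p = 0.00103).

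Conditions were compared over the 3 regions together, with region as a covariate, and log2 fold changes are relative to the scaling used. Over all genes the median log2 fold change was -0.17 for fresh-frozen TE over HCl, -0.18 for fixed frozen TE over fresh-frozen TE and 0.32 for paraffin TE over fixed frozen TE. With scaling factors from all genes the last 2 became -0.39 and 0.05. In fresh-frozen TE against HCl sections 13 of 31 pump genes tested were higher and 6 lower, where 12.3% and 19.2% of all genes were, and thinning to equal depth left 3 higher and 5 lower. In fixed frozen TE against fresh-frozen TE sections 10 of 30 were higher and 9 lower (20.6% and 25.6% of all genes), or 9 and 12 with the other scaling. In paraffin TE against fixed frozen TE sections 7 of 29 were higher and 10 lower (22.4% and 8.02%), or 4 and 14 with the other scaling. No called gene changed direction between these scalings.

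Permeabilization with TE instead of HCl went with more UMIs of the V1 sector. Of its 9 tested genes 8 were higher in fresh-frozen TE sections and 0 lower, with a median log2 fold change of 0.45. Of 6 V0 genes 2 were lower and 0 higher, where 19.2% of all genes were lower and 12.3% higher. Thinning to equal depth lost the calls of Atp6v1b2, Atp6v1c1, Atp6v1e1, Atp6v1f, Atp6v1g1 and Atp6v1h (adjusted p from 0.0785 to 0.646). The Atp6v1c1 call was also lost without the filter on low counts (adjusted p = 0.0858) and in several omissions of 1 replicate (adjusted p up to 0.1135). Over the 12 replicates, Atp6v1h, a regulatory V1 subunit, ran from 71.2 to 110.0 CPM with a median of 87.6 in HCl and from 113 to 211 CPM with a median of 162 in TE sections. Atp6v1g1, the widely expressed G subunit, ran from 4.19 to 27.6 CPM with a median of 9.46 in HCl and from 13.6 to 38.6 CPM with a median of 22.8 in TE sections. The medians were higher in TE for both, and so they were for the other 2 V1 genes named by the rule. Atp6v1f ran from 52.7 to 80.3 CPM with a median of 72.6 and then from 79.3 to 149 CPM with a median of 129. Atp6v1a ran from 699 to 1211 CPM with a median of 1129 and then from 1272 to 2226 CPM with a median of 1575. Their log2 fold changes were 1.00 ± 0.11 (SE), with adjusted p = 1.53e-10 for Atp6v1h, 0.92 ± 0.22 (SE), with adjusted p = 0.000659 for Atp6v1g1, 0.90 ± 0.10 (SE), with adjusted p = 1.48e-09 for Atp6v1f and 0.75 ± 0.09 (SE), with adjusted p = 2.27e-09 for Atp6v1a. Within the regions Atp6v1a changed by 0.66 in CA1, 0.77 in CA3 and 0.82 in DG.

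Outside the V-ATPase, Atp1b1, the main beta subunit of neurons, had the largest rise in TE. Atp1b1 ran from 825 to 1723 CPM with a median of 1261 in HCl and from 2106 to 3216 CPM with a median of 2469 in TE sections, with no overlap. Its log2 fold change was 1.04 ± 0.09 (SE), with adjusted p = 6.03e-13, and within the regions it was 1.04 in CA1, 0.93 in CA3 and 1.17 in DG. Atp1b1 shares 18.7% of its exonic bases with Nme7, and its highest count was 2341 UMIs, or 3472 after correction for collisions. Atp2b4 ran from 22.7 to 110.4 CPM with a median of 41.8 in HCl and from 32.5 to 158 CPM with a median of 92.4 in TE sections, with a log2 fold change of 0.88 ± 0.16 (SE), with adjusted p = 1.58e-05. Among the genes lower in TE were Atp1b2, Atp2b2, Atp6v0a1 and Atp6v0b, with log2 fold changes from -0.71 to -0.39. Of these, Atp6v0b lost its call in 3 of the 24 omissions of 1 replicate. Each gene whose replicate ranges are given for both sides of a comparison between conditions kept its call there in the 24 omissions of 1 replicate, except Atp6v1a after fixation, described below. Among the calls lost by thinning were those of Atp6v1h, Atp6v1g1, Atp6v1f and Atp2b4 (adjusted p = 0.0785, 0.467, 0.386 and 0.0700).

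Fixation before freezing went with changes in both directions. Of the 6 tested calcium pump genes 1 was higher and 4 were lower in fixed frozen TE than in fresh-frozen TE sections. Of 9 V1 genes 5 were higher and 1 was lower, where 20.6% of all genes were higher and 25.6% lower. Atp1b1 ran from 706 to 1347 CPM with a median of 1013 after fixation, below every fresh-frozen TE replicate, with a log2 fold change of -1.11 ± 0.10 (SE), with adjusted p = 6.63e-17. Atp1b2 was lower as well (-0.54 ± 0.12 (SE), with adjusted p = 0.000141). Summed over the 8 astrocyte markers, medians went from 2859, 2683 and 3982 CPM in CA1, CA3 and DG of fresh-frozen TE sections to 918, 726 and 1182 CPM in fixed frozen TE sections, with 3 of the 8 called lower and 1 higher. For 4 excitatory neuron markers the medians went from 3142, 3065 and 3763 CPM to 2092, 2264 and 2186 CPM, with 2 called lower and 1 higher. The part of these cells in the changes of the pump genes was not tested.

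The V-ATPase genes with the largest rises were Atp6v0d1, Atp6v1e1 and Atp6v1c1. Atp6v0d1 ran from 20.4 to 91.4 CPM with a median of 58.3 in fresh-frozen TE and from 74.5 to 284 CPM with a median of 114 in fixed frozen TE sections. Atp6v1e1, of the stalk, ran from 248 to 408 CPM with a median of 283 and then from 544 to 998 CPM with a median of 665. Atp6v1c1, the subunit that links the head to V0, ran from 102 to 168 CPM with a median of 128 and then from 204 to 446 CPM with a median of 275. The log2 fold changes were 1.58 ± 0.16 (SE), with adjusted p = 1.43e-14 for Atp6v0d1, 1.37 ± 0.10 (SE), with adjusted p = 2.08e-20 for Atp6v1e1 and 1.26 ± 0.12 (SE), with adjusted p = 6.6e-15 for Atp6v1c1. Atp2b4 ran from 0 to 85.3 CPM with a median of 25.6 in fixed frozen TE sections, a log2 fold change of -1.20 ± 0.24 (SE), with adjusted p = 1.56e-05, lost after thinning (adjusted p = 0.119). The small rise of Atp6v1a (0.29) was lost in 2 of the 24 omissions of 1 replicate (adjusted p from 0.0511 to 0.0655), with DESeq2 (adjusted p = 0.606), with scaling from all genes (0.05, adjusted p = 0.708) and after the correction for collisions (0.13, adjusted p = 0.235).

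**Figure D5:**
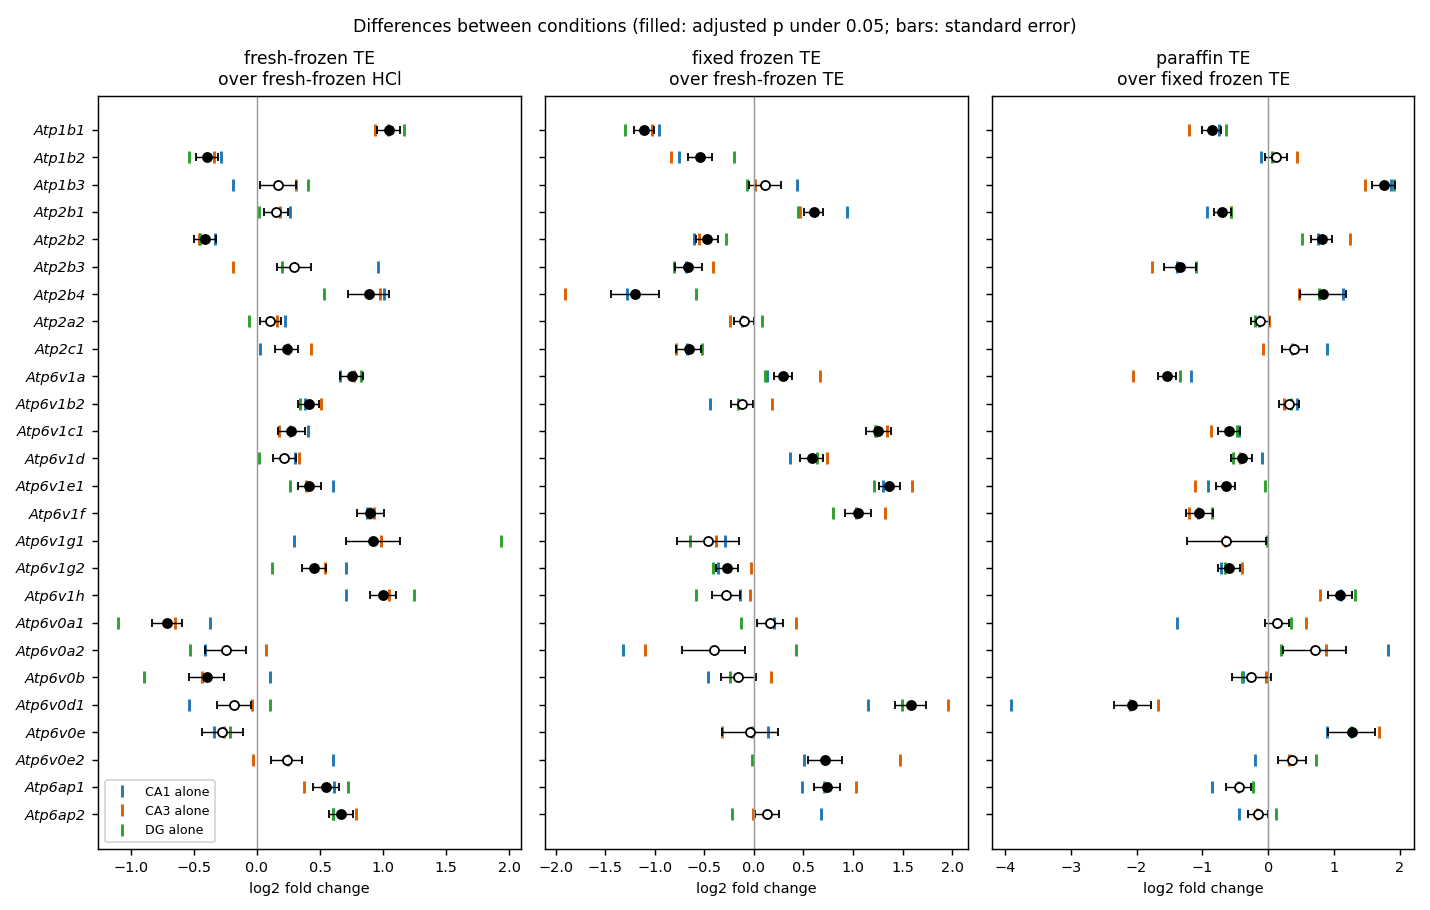
Log2 fold change of pump genes between conditions, pooled over regions with the SE from the model, and ticks for each region alone. Atp6v0d1 rises between fresh-frozen TE and fixed frozen TE sections and falls between fixed frozen TE and paraffin TE sections, and Atp1b3 rises in the latter.

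Paraffin embedding instead of freezing of fixed tissue went with fewer UMIs of the V1 sector, where 6 of 9 tested genes were lower and 1 was higher, with a median log2 fold change of -0.60. Of all genes, 8.02% were lower and 22.4% higher. Atp6v0d1 ran from 0 to 83.7 CPM with a median of 13.4 in paraffin TE sections, against the range in fixed frozen TE sections given above. Atp6v1a ran from 1107 to 2576 CPM with a median of 1977 in fixed frozen TE and from 235 to 854 CPM with a median of 534 in paraffin TE sections. Every paraffin TE replicate was below every fixed frozen TE replicate for Atp6v1a, while Atp6v0d1 overlapped through the CA3 replicates. Their log2 fold changes were -2.07 ± 0.28 (SE), with adjusted p = 2.57e-11 for Atp6v0d1 and -1.54 ± 0.14 (SE), with adjusted p = 1.35e-21 for Atp6v1a, and by region Atp6v1a changed by -1.17 in CA1, -2.06 in CA3 and -1.35 in DG. Atp6v1f had a log2 fold change of -1.05 ± 0.20 (SE), with adjusted p = 5.37e-06. Atp6v1h was the V1 gene that rose, with 1.08 ± 0.18 (SE), with adjusted p = 2.44e-07. Atp6v1h ran from 67.1 to 173 CPM with a median of 125 in fixed frozen TE and from 105 to 476 CPM with a median of 212 in paraffin TE sections.

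Atp1b3 encodes beta3, a subunit found in many cells, and was the gene that rose most in paraffin TE sections. It ran from 55.0 to 179 CPM with a median of 113 in fixed frozen TE and from 200.5 to 668 CPM with a median of 325 in paraffin TE sections. The log2 fold change was 1.75 ± 0.17 (SE), with adjusted p = 1.13e-18, and by region 1.86 in CA1, 1.47 in CA3 and 1.91 in DG. Atp2b3 ran from 81.5 to 204 CPM with a median of 144 and then from 0 to 98.9 CPM with a median of 37.8, a log2 fold change of -1.34 ± 0.24 (SE), with adjusted p = 1.27e-06. The rise of Atp2b4 (0.83) was lost with scaling from all genes (adjusted p = 0.245) and in 14 of the 24 omissions of 1 replicate. The 7 oligodendrocyte markers rose in the same comparison. Sums of neuronal markers had lower medians in some regions, from 2092 to 1188 CPM in CA1 and 2186 to 1614 CPM in DG for the excitatory neuron list, with 2 of its 4 genes called lower and 1 higher. The median sum of the CA1 markers in CA1 went from 780.4 to 298 CPM and that of the 7 DG markers in DG from 1920 to 945 CPM, with 1 of 4 and 4 of 7 called lower. The part of these cells in the changes of the pump genes was not tested.

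Partners of the pumps were compared between conditions in the same way. Of the V-ATPase partners, 6 of 11 were higher and 2 lower in fresh-frozen TE than in HCl sections (12.3% and 19.2% of all genes). After fixation 5 of 11 were higher and 3 lower than in fresh-frozen TE sections (20.6% and 25.6%), and 1 of 10 was higher and 1 lower in paraffin TE than in fixed frozen TE sections (22.4% and 8.02%), so the lower share after fixation was near that of all genes. Rogdi went from lower in TE (-1.30 ± 0.13 (SE), with adjusted p = 1.76e-11) to higher after fixation (1.81 ± 0.19 (SE), with adjusted p = 1.24e-13). Fxyd7 was higher in fixed frozen TE than in fresh-frozen TE sections as well (2.11 ± 0.23 (SE), with adjusted p = 4.75e-13). Nptn, which encodes neuroplastin, a subunit of the plasma membrane calcium pumps, was higher in TE than in HCl sections (1.17 ± 0.10 (SE), with adjusted p = 2.13e-13) and lower after fixation (-1.21 ± 0.12 (SE), with adjusted p = 2.42e-14). As these comparisons share the fresh-frozen TE replicates, opposite signs can come from those replicates alone.

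Further region calls came from 1 condition each. Against DG, CA1 had more Atp6v1g1 (1.75, adjusted p = 0.00582) and less Atp6v0a1 (-0.62, adjusted p = 0.0224) in fresh-frozen HCl, more Atp6v0b in fresh-frozen TE (0.76, adjusted p = 0.023) and more Atp6ap2 in fixed frozen TE sections (0.74, adjusted p = 0.00427). CA3 had more Atp6ap1 than DG in fresh-frozen HCl (0.66, adjusted p = 0.0219) and more Atp2b4 in fresh-frozen TE sections (1.02, adjusted p = 0.0119). CA1 had less Atp6v1g2 than CA3 in fresh-frozen HCl sections (-0.51, adjusted p = 0.0254). Atp6v1g1 kept its call with any 1 replicate left out but lost it with DESeq2 (adjusted p = 0.0554). Of the others, the CA1 calls against DG were lost for Atp6v0a1 when CA1 replicate 1 or 2 or DG replicate 1 or 2 was left out (adjusted p from 0.0777 to 0.131), for Atp6v0b when CA1 replicate 3 or DG replicate 1 or 4 was left out (adjusted p from 0.069 to 0.122) and for Atp6ap2 when CA1 replicate 4 was left out (adjusted p = 0.101). The CA3 calls against DG were lost for Atp6ap1 when CA3 replicate 1 or 2 or DG replicate 2 or 4 was left out (adjusted p from 0.0568 to 0.0751) and for Atp2b4 when CA3 replicate 3 or DG replicate 1 was left out (adjusted p from 0.0598 to 0.0957). The Atp6v1g2 call was lost when CA1 replicate 2 or 3 or CA3 replicate 1 or 3 was left out (adjusted p from 0.0655 to 0.105).

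Of the 41 genes 12 had fewer than 100 UMIs in all 48 replicates together. They were Atp1a4, Atp1b4, Atp2a3, Atp2c2, Atp6v0a4, Atp6v0c, Atp6v0d2, Atp6v1b1, Atp6v1c2, Atp6v1e2, Atp6v1g3 and Atp6ap1l, with 1 to 29 UMIs each. Several are forms known from kidney, testis, muscle or osteoclasts. Atp6v0c encodes the c subunit that builds most of the proton-carrying ring, and it had 1 UMI in 1 replicate and 0 in the other 47, although no near-identical copy and no overlapping gene was found for it. As background, every V-ATPase needs this subunit, and whether its reads were lost in counting or annotation was not tested, so its level cannot be read from these counts. Atp6ap1l, a gene related to Atp6ap1, had 10 UMIs in CA1 and 0 in DG of fresh-frozen TE sections, which was at least 2.48-fold higher when the floor for DG is set at 3 UMIs over its 4 replicates. It met the minimum of 10 UMIs for a test through CA1 alone, so its call is no support for a difference. DESeq2 gave no adjusted p for it. Its adjusted p was 0.047, and 0.0631 with the replicate block and 0.0543 without the filter on low counts, and the call was lost when DG replicate 1, 2, 3 or 4 was left out (adjusted p from 0.0709 to 0.117). Of the bases in exons of Atp2c1, 18.9% overlap Aste1.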

How the data were processed

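Unique molecular identifiers (UMIs) were counted per gene in 48 replicates of CA1, CA3 and DG in 4 histological conditions. The deposited table holds raw counts of different UMIs of 6 bases per gene and replicate barcode, which the authors made with UMI-tools 1.0.0, HISAT2 2.1.0 (GRCm38) and featureCounts 1.6.4, with no normalization. Whether counting used strand is not given in the sources used here. Here regions were compared within a condition (8 replicates) and conditions over regions (24 replicates, region as covariate), with a region-by-condition interaction, by the quasi-likelihood test of edgeR 4.0.16 in R 4.3.3. All genes reaching 10 UMIs in sum were fitted together, with Benjamini-Hochberg adjustment across them and a threshold of 0.05. Standard errors come from the fitted model. Scaling factors (TMM) rested on genes averaging 10 or more UMIs in a replicate, since TMM over all genes shifted unchanged genes in simulated data of unequal depth, and TMM over all genes was run as an alternative added after seeing the data. So were the correction for UMI collisions and the omission of replicate 4 from every library.

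Replicate values were printed for members called in the same direction in at least 2 conditions (at most 20), called by an interaction term, or called between conditions with the same sign in all 3 regions at a mean of at least 10 UMIs (at most 6 per comparison). Results of some members are not reported here, although counts over the members include them. The members, lists and tests were chosen with earlier results of these data known. Replicate numbers were taken to pair replicates where every pair of deviations correlated over 0.1, which held in 6 of 21 pairs of libraries (r from -0.041 to 0.433 over all pairs). Other alternatives were DESeq2 1.42.0, its size factors, other filters, thinning to 35932 UMIs, a replicate block, 1 region alone and omission of each replicate. Promoters came from RefSeq (GRCm38.p6). Totals of 35932 to 1111804 UMIs limit precision most in paraffin TE sections.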

Additional observations from a re-analysis of the deposited data

Results flagged for a closer look

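Among 252 groups of 4 replicates, of 21 members named with values, 8 held a replicate whose gap to its nearest neighbour exceeded Dixon's critical share of the group's range, and chance alone would give about 1 in 20 such groups. The 8 are fewer than that, so these flags are no sign of outliers beyond chance. In fresh-frozen HCl sections these were Atp2b3 in CA1 with a low replicate at 78.6 CPM and Atp6v0b in DG with a high replicate at 168 CPM. In fresh-frozen TE sections Atp6v1e1 had a high CA1 replicate at 408 CPM. In paraffin TE sections Atp1b3 had a high CA1 replicate at 668 CPM, Atp6v0d1 a high CA1 replicate at 18.0 CPM with the other 3 at 0, and Atp6v0a1 a low CA1 replicate at 0 CPM. The 18.0 CPM of Atp6v0d1 were 1 UMI in a total of 55561, so this flag rests on 1 molecule. Also in paraffin TE sections, Atp1b1 and Atp2b1 each had a low DG replicate, at 427 and 1519 CPM. One effect differed between conditions by a test of the difference itself: for Atp6v0e2 the log2 fold change of CA3 over DG was larger by 1.47 in fixed frozen TE than in fresh-frozen TE sections (adjusted p = 0.0458).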

How the results depend on the processing

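Of 110 called results of named genes, 1074 refits under alternatives gave 899 with the same direction and call, 171 without the call and 4 with another sign, and 1768 refits with 1 replicate left out gave 1532, 236 and 0. Calls between CA1 and DG over the 4 conditions (22) were 14 with DESeq2, 5 after thinning and 18 to 23 with 1 replicate left out. Between CA3 and DG (29) they were 5 after thinning, 17 without replicate 4 of every library, 24 to 31 with 1 replicate left out and 44 with the replicate block. Between CA1 and CA3 (15) they were 7 after thinning, 12 to 18 with 1 replicate left out and 31 with the replicate block. Fresh-frozen TE over HCl (19) gave 8 after thinning, 11 in CA1 alone, 12 in DG alone and 16 to 21 with 1 replicate left out. Fixed frozen TE over fresh-frozen TE (19) gave 18 to 20 with 1 replicate left out and 13 to 22 under the alternatives. Paraffin TE over fixed frozen TE (17) gave 11 after thinning, 9 in CA1 alone, 8 in CA3 alone and 14 to 17 with 1 replicate left out. The 1 interaction call became 3 with DESeq2, 0 with filterByExpr, 2 with TMM over all genes, 0 after thinning, 6 with the replicate block and 0 to 1 with 1 replicate left out.

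The sign changed for Atp2b2, CA3 over DG in fresh-frozen TE sections (-0.090 after thinning), Atp2c1, TE over HCl (-0.22 after thinning), Atp6v0b, TE over HCl (0.11 in CA1 alone), and Atp6v0e2, fixed frozen TE over fresh-frozen TE (-0.015 in DG alone). The causes were not tested. With the replicate block 2 of the 110 calls were lost, those of Atp6ap1l given above and Atp2b4 in paraffin TE over fixed frozen TE (adjusted p = 0.0503). The pairing rests on 6 of 21 pairs of libraries, and in 57 of 84 cases a replicate correlated best with its own number. Depth limits the paraffin TE comparisons and genes under 100 UMIs most.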
